A study of Homo sapiens with 39 samples.

Results

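The 8 transcription factor genes of the neural crest followed here were PAX3, TFAP2A, TFAP2B, TFAP2C, FOXD3, FOXD1, MSX1 and MSX2. They were picked by gene symbol, all 8 were found, and they are 8 of the 60671 genes in the table. RNA was measured by polyadenylated RNA sequencing in 39 libraries. They come from 2 human melanoma lines, A375 and WM115, both established. For each line there are wild-type cells (WT) and clones deleted for a SOX10 enhancer region, R1 or R4 by genotype label. SOX10 encodes a transcription factor of neural crest cells and melanocytes.

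A375 gave 4 WT libraries, 3 of R1_del clone 1.1, 4 of R1_del clone 1.2, 4 of R4_del clone 4.1 and 3 of R4_del clone 4.2. WM115 gave 4 WT libraries, 5 of R1_del clone 1.1, 3 of R1_del clone 1.2, 3 of R4_del clone 4.1 and 3 of R4_del clone 4.2. WM115 clone 1.3 gave 3 libraries. Its title is numbered like the R1 clones and its genotype label reads R4_del, so it entered no comparison of regions. The libraries of a clone repeat that clone. A test over them compares 1 clone with WT, and its p-value measures the spread between libraries, which may be technical.

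The neural crest forms at the border of the neural plate and gives rise to melanocytes, glia and much of the face. PAX3, MSX1, MSX2 and the TFAP2 genes are known as border factors: BMP and Wnt signals turn them on, and they act upstream of FOXD3 and the SOX genes. In the pigment lineage PAX3 and TFAP2A act beside SOX10 and MITF on melanocyte genes, while FOXD3 is known to hold back the melanocyte fate.

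The values are TPM, scaled for transcript length and library total, so read depth is unknown. Between 14128 and 16140 genes had at least 1 TPM in an A375 library, and 14084 to 15528 in a WM115 library. The share of TPM in mitochondrial genes was 0.968% to 4.92% in A375 and 4.71% to 19.4% in WM115. WM115 clone 1.2 library 3 stood apart: its SOX10 level was 9.56 TPM against 279 and 272 TPM in libraries 1 and 2, and the 7 melanocyte markers summed to as little as 27.3 TPM in that clone against 1030 to 2760 TPM in WT. MLANA, TYR and DCT, which mark pigmented melanocytes, were under 1 TPM in every A375 group. The other melanocyte markers SOX10, MITF, S100B and PMEL had means of 682, 22.3, 63.9 and 1.04 TPM in A375 WT. Of the 4 epithelial markers, EPCAM and CDH1 were under 1 TPM in every group of both lines. KRT8 and KRT18 had means of 44.3 and 266 TPM in A375 WT and 12.9 and 83.8 TPM in WM115 WT. In WM115 WT the fibroblast marker COL1A2 had a mean of 545 TPM, while COL3A1 and DCN were under 1 TPM. The blood marker CD68 had 398 TPM there, while PTPRC and CD3E were under 1 TPM. In bulk RNA, fewer cells expressing a gene and less RNA per cell cannot be told apart.

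The promoter sequences are shown for TFAP2A, TFAP2B, MSX1 and MSX2, because these are the genes that differed between the groups of A375 by an F test. They are RefSeq sequence of build GRCh38.p14, written 5′ to 3′ along the gene, from at most 250 bases before the RefSeq start and cut where an annotated exon begins. Of the 8 genes, 7 had an entry, and TFAP2C did not. The windows lie at chr6:50818621-50818722 (TFAP2B, plus strand), chr6:10412392-10412601 (TFAP2A, minus strand, the start nearer the coding exons), chr4:4859415-4859664 (MSX1, plus strand) and chr5:174724332-174724532 (MSX2, plus strand). Capitals mark matches on either strand to TATAAA (the TATA box), CCAAT (the CCAAT box), ACAAT (a core that SOX factors bind) and TAATTA (a homeodomain core). GCCNNNGGC, the palindrome that TFAP2 factors bind, was searched too and had 0 matches in the 8 windows searched, of which TFAP2A has 2.
TFAP2B: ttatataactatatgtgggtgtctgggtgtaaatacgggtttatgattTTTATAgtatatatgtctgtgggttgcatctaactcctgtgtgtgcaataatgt
TFAP2A: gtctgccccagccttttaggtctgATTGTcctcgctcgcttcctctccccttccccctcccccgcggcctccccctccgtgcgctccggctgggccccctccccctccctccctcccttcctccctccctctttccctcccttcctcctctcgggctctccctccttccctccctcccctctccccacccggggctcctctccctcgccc
MSX1: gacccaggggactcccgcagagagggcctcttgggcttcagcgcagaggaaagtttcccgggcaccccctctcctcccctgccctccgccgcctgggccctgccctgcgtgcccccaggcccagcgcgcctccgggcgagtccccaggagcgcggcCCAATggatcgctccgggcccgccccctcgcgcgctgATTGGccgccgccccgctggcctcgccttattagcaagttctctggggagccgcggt
MSX2: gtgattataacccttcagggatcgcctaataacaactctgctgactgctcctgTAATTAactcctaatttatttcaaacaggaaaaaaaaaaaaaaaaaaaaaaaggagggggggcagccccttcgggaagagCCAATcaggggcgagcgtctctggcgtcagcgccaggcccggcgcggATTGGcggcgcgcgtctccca

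MSX1 and MSX2 each hold 2 CCAAT boxes, 1 on each strand, and 32.0% of the 35116 promoters in the table hold at least 1 in the 250 bases before the start. TAATTA, present in MSX2, occurs in 4.3% of promoters, TATAAA in 10.7%, ACAAT in 24.6% and GCCNNNGGC in 19.8%. The whole 250-base window of TFAP2B has a GC content of 40.8%, at percentile 14.1 of all promoters, while that of MSX1 has 74.0%, at percentile 87.7. These letters are a description of the windows and not of factor binding.

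Differences are given on the log2(TPM + 1) scale from limma, which understates the change of low genes. A call needed an adjusted p (Benjamini-Hochberg over all genes tested) under 0.05 and a log2 difference of at least 1 in size. All 8 genes were tested in A375 and 6 in WM115, where TFAP2B and MSX2 did not reach 1 TPM in 3 libraries. In A375, 2 of 8 were called in clone 1.2, where 4.01% of 16692 genes were called, and 0 of 8 in clones 1.1, 4.1 and 4.2, where 0.731%, 0.653% and 0.473% were called. At an unadjusted limma p under 0.05, those 3 clones had 4, 1 and 2 of the 8, against 10.1%, 10.5% and 7.77% of all genes. In WM115, 1 of 6 was called in clone 4.1 and 1 of 6 in clone 4.2, against 7.57% and 6.6% of 16997 genes. In WM115 clones 1.1, 1.2 and 1.3, 0 of 6 were called, against 4.88%, 7.61% and 0.618%, and 4, 1 and 3 of the 6 had an unadjusted limma p under 0.05, against 35.1%, 36.5% and 13% of all genes. The median log2 difference of the genes tested was -0.08 in A375 clone 1.2, where that of all genes was 0.07, and 0.08 and -0.29 in WM115 clones 4.1 and 4.2, where that of all genes was -0.10.

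Groups can also be set apart by their ranges alone. In A375, 3 of the 8 genes did not overlap WT in clone 1.1, 3 in clone 1.2, 1 in clone 4.1 and 2 in clone 4.2, where 7.41%, 13.8%, 7.12% and 6.52% of all genes did not. Of the 6 genes tested in WM115, 1 in clone 1.1, 0 in clone 1.2, 3 in clone 1.3, 4 in clone 4.1 and 2 in clone 4.2 did not overlap WT, against 23.6%, 28.3%, 11.5%, 36.9% and 32.1% of all genes. Between clones of a region, 3 genes did not overlap between A375 clones 1.1 and 1.2 (22.9% of all genes) and 4 between 4.1 and 4.2 (17.3%). In WM115, 1 did not overlap between clones 1.1 and 1.2 (33.3%) and 3 between 4.1 and 4.2 (27.7%).

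**Figure D1:**
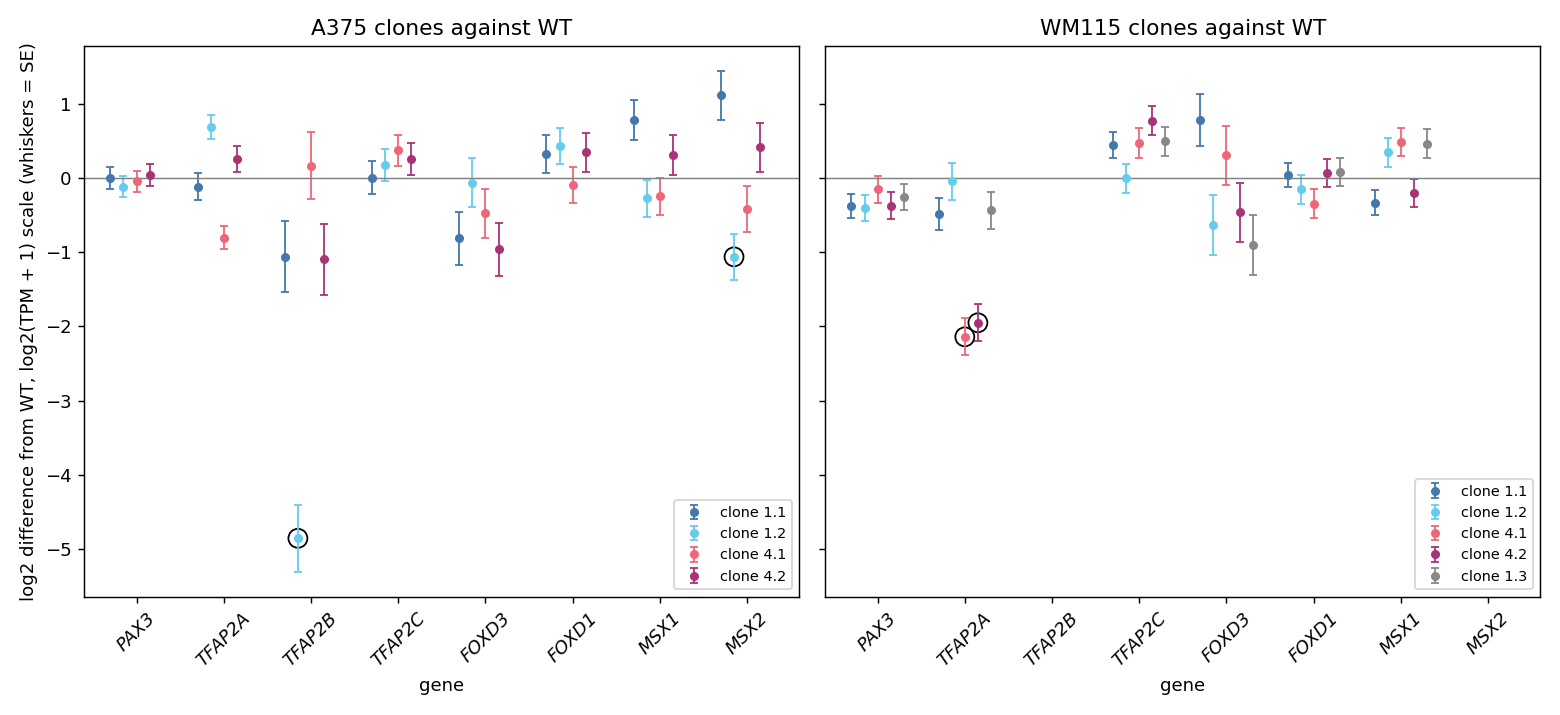
Log2 difference of each clone from WT (y axis, log2(TPM + 1) scale; whiskers are SE) for each gene (x axis), with a ring around the called ones; TFAP2B and MSX2 were not tested in WM115. The 4 rings are TFAP2B and MSX2 in A375 clone 1.2 and TFAP2A in WM115 clones 4.1 and 4.2.

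The TFAP2 genes encode AP-2 factors that bind one DNA palindrome as dimers and can stand in for each other in part. TFAP2A is needed for neural crest and melanocyte development. TFAP2B and TFAP2C have roles in the neural crest, kidney and trophoblast. Among the clones set against WT, the largest difference of the genes tested was that of TFAP2B (ENSG00000008196, chromosome 6, 50818723 to 50847613) in A375 clone 1.2. TFAP2B had 143, 188, 166 and 84.6 TPM in the A375 WT libraries and 3.79, 2.66, 4.43 and 4.73 TPM in those of clone 1.2. All 4 libraries of the clone were far under the lowest WT library, and TFAP2B fell by 4.86 on the log2 scale (SE 0.45, limma adjusted p 1.98e-06). Genes within 10 Mb of TFAP2B had a median log2 difference of 0.08 in this clone.

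TFAP2B in A375 clone 1.1, which carries a deletion of the same region, had 154, 82.9 and 22.4 TPM. These libraries spread from the WT range to far under it, and the log2 difference of -1.06 (SE 0.48) had a limma adjusted p of 0.472. It was -1.66 without library 1 and -0.30 without library 3. Clone 4.2 had 114, 67.6 and 35.1 TPM, with a log2 difference of -1.09 and a limma adjusted p of 0.621. In both clones the libraries with more TFAP2B had more SOX10: 667, 491 and 381 TPM of SOX10 in clone 1.1 and 647, 541 and 488 TPM in clone 4.2, in the same order of libraries. Libraries of these clones with the same replicate number deviated together across all genes, so this is not a separate observation in each clone. A part of SOX10 level in the TFAP2B spread was not tested. Clone 4.1 had 172, 164, 167 and 127 TPM of TFAP2B, inside the WT range. Clone 1.1 was higher than clone 1.2 by 3.80 (SE 0.48, limma adjusted p 5.91e-05), so the R1 clones of A375 differed from each other, in a comparison that called 6.16% of genes.

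Other values moved with A375 clone 1.2. Its libraries had 441, 406, 473 and 451 TPM of SOX10, all under the lowest WT library at 630.0 TPM. The 6 fibroblast markers summed to 15.2 to 20.8 TPM against 6.18 to 13.1 in WT, with COL1A2 and COL3A1 under 1 TPM in both. The 4 epithelial markers summed to 450.0 to 616 TPM against 252 to 403, with EPCAM and CDH1 under 1 TPM. Of the 3 blood markers only CD68 was above 1 TPM, and their sum was 87.3 to 165 TPM against 20.6 to 120 in WT. Their part in the result was not tested. Within the A375 libraries of low mitochondrial share, TFAP2B in clone 1.2 had a log2 difference of -4.98, as large as over all libraries.

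TFAP2A (ENSG00000137203, chromosome 6, 10393186 to 10419659, minus strand) fell in WM115 clones 4.1 and 4.2, which are numbered and labelled as R4. It did not pass the threshold in clone 1.3, which is labelled R4_del but numbered like the R1 clones. The WT libraries had 88.3, 86.8, 51.6 and 111 TPM. Clone 4.1 had 19.1, 14 and 20.8 TPM and clone 4.2 had 22.5, 18.8 and 19.9 TPM. All 6 clone libraries lay under the lowest WT library. TFAP2A fell by 2.14 (SE 0.25, limma adjusted p 1.56e-05) in clone 4.1 and by 1.95 (SE 0.25, limma adjusted p 7.79e-05) in clone 4.2, which share the WT libraries. The 2 clones overlapped each other and differed by -0.19 (limma adjusted p 0.755).

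The other WM115 clones overlapped WT in TFAP2A. Clone 1.1 had 74.7, 53.0, 45, 48.8 and 75.4 TPM, clone 1.2 had 69.8, 87.2 and 81.1 TPM, and clone 1.3 had 39.3, 69.3 and 79.8 TPM. These clones differed from WT by -0.48, -0.04 and -0.43 (limma adjusted p 0.13, 0.923 and 0.491). The order of mean TFAP2A levels in WM115 was thus WT, 1.2, 1.3 and 1.1, whose ranges overlapped, and then 4.2 and 4.1, which overlapped each other only.

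Several measures moved with the WM115 R4 clones, though not with them alone. Genes of chromosome 6 had a median log2 difference of -0.31 in clone 4.1 and -0.25 in clone 4.2 against -0.10 for all genes, and the 97 genes within 10 Mb of TFAP2A had -0.32 in both. Clone 1.2 had -0.17 on chromosome 6 against -0.02 for all genes, where TFAP2A differed by -0.04. Clones 1.1 and 1.3 had -0.10 and -0.06 on chromosome 6 against -0.12 and -0.03 for all genes. Mitochondrial genes took 13.7% to 15.6% of TPM in the WT libraries, 5.24% to 10.8% in clone 4.1 and 4.71% to 12.7% in clone 4.2. Their share was 8.75% to 11.8% in clone 1.2, 4.86% to 14.4% in clone 1.1 and 8.31% to 19.4% in clone 1.3. Within libraries of high mitochondrial share the TFAP2A difference was -1.92 in clone 4.1, which had 1 library there, and -2.02 in clone 4.2. The 7 melanocyte markers summed to 791 to 1140 TPM in clone 4.1 and 661 to 1060 TPM in clone 4.2 against 1030 to 2760 TPM in WT, and their part was not tested. MLANA and TYR were under 1 TPM in both clones. DCT had means of 7.71 and 5.11 TPM against 842 ± 615 TPM in WT (SD, n = 4). By the limma calls 5 of the 7 markers fell in clone 4.1 and 4 in clone 4.2, where 7.57% and 6.6% of all genes were called. S100B did not fall, with means of 592 and 458 TPM against 326 TPM in WT. SOX10 had means of 405 and 422 TPM against 507 TPM in WT.

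TFAP2A moved in the A375 clones too, by less than the minimum difference of a call. The WT libraries had 9.95, 14.5, 10.2 and 12.4 TPM. Clone 1.2 had 18.3, 19.7, 17.8 and 22.3 TPM, all above WT, with a log2 difference of 0.69 (SE 0.16, limma adjusted p 0.0133). Clone 4.1 had 6.69, 6.84, 5.37 and 6.31 TPM, all under WT, with a log2 difference of -0.80 (SE 0.16, limma adjusted p 0.0199). Clone 4.2, of the same region as 4.1, had 13.3, 15.2 and 14 TPM and overlapped WT. Clone 4.1 was lower than 4.2 by a log2 difference of -1.06 (SE 0.18, limma adjusted p 0.00283), 1 of 8 genes called where 2.23% of all genes were. That call was lost after median-of-ratios scaling, at -0.98, and without clone 4.1 library 3, at -0.99. Clone 1.1 had 7.99, 14.7 and 10.3 TPM and was lower than clone 1.2 by a log2 difference of -0.81 (limma adjusted p 0.0067).

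TFAP2C (ENSG00000087510, chromosome 20, 56629302 to 56639283) had the highest mean of the 3 TFAP2 genes in every WM115 group, though in WT library 4 TFAP2A was level with it, at 111 against 110 TPM. Across the A375 groups its mean ran from 81.4 to 104 TPM, with no difference past the threshold. The WM115 WT libraries had 137, 131, 148 and 110 TPM. Clone 4.2 had 266, 172 and 250 TPM, all above WT, with a log2 difference of 0.78 (SE 0.20, limma adjusted p 0.0117) that was under the minimum of a call. Clones 1.1, 1.3 and 4.1 also lay wholly above WT, by 0.45, 0.50 and 0.48 on the log2 scale (limma adjusted p 0.0769, 0.303 and 0.0922). In clone 1.2, libraries 1 and 2 had 164 and 160.1 TPM and library 3 had 86.1 TPM.

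TPM is corrected for length, so the levels of the 3 genes can be summed. Their sum was 238 ± 25.5 TPM in A375 WT and 114 ± 11.4 TPM in A375 clone 1.2 (SD, n = 4 each). TFAP2B took 41.4% to 70.7% of the sum in A375 WT and 2.28% to 4.43% in clone 1.2, where TFAP2C took 74.7% to 82.8%. In WM115 the sum was 216 ± 11.4 TPM for the 4 WT libraries, against 202 ± 28.2 TPM for the 3 of clone 4.1 and 249 ± 52 TPM for the 3 of clone 4.2 (mean ± SD). TFAP2A took 25.8% to 50.2% in WM115 WT, 7.52% to 11.2% in clone 4.1 and 7.37% to 9.86% in clone 4.2. The sum in WM115 clones 4.1 and 4.2 overlapped WT while the TFAP2A share did not. In all 18 A375 libraries TFAP2A and TFAP2B correlated at r = -0.75, a description over libraries that share groups.

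**Figure D2:**
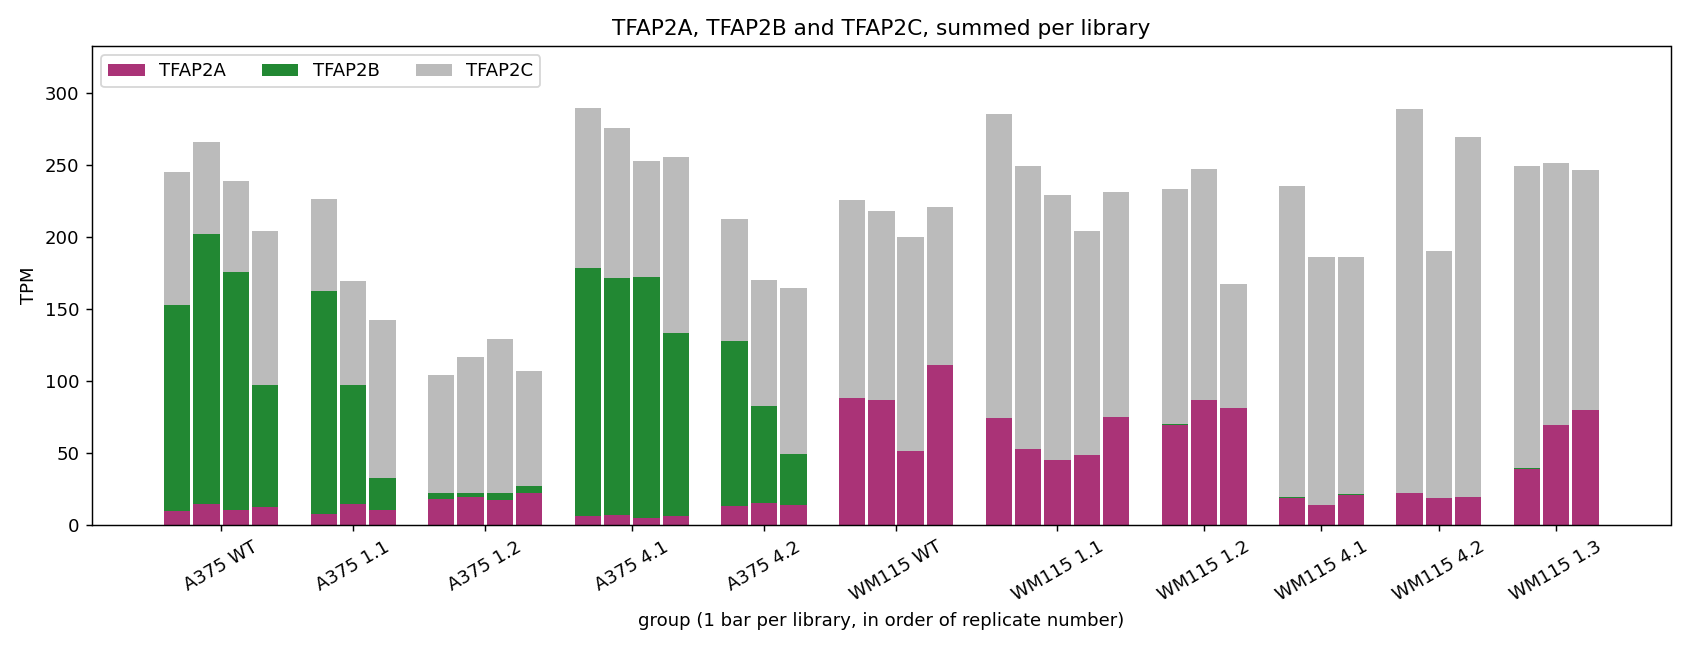
TFAP2A, TFAP2B and TFAP2C stacked per library (y axis, TPM; 1 bar per library, grouped on the x axis). TFAP2B is 41.4% to 70.7% of the A375 WT bars and is nearly absent from A375 clone 1.2 and from WM115. TFAP2A is 7.37% to 11.2% of the bars of WM115 clones 4.1 and 4.2 against 15.8% to 50.2% in the other WM115 groups.

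TFAP2A has 19 annotated transcripts, whose starts (GENCODE 29) fall in 4 clusters: distal (10419554 to 10419659), middle (10414985 to 10417207), proximal (10410094 to 10412879) and an internal one at 10404594 on chromosome 6. The proximal cluster holds the RefSeq start whose sequence is shown above. In WM115 WT, transcripts of the middle starts summed to 45.3 ± 14.7 TPM and those of the proximal starts to 37.8 ± 9.96 TPM (SD, n = 4). The same sums were 7.81 ± 1.33 and 9.79 ± 2.2 TPM in clone 4.1, and 8.02 ± 2.36 and 11.8 ± 0.517 TPM in clone 4.2 (SD, n = 3 each). Transcripts of both clusters were lower in these clones, and the proximal share was 51.9% to 57.3% and 51.3% to 66.1% against 43.8% to 48.4% in WT. In A375 clone 1.2 the proximal share was 56.7% to 59.4% against 34.2% to 45.7% in WT. Shares above WT were also found in WM115 clone 1.2 (50.8% to 57.9%) and A375 clone 1.1 (49.4% to 53.4%), whose TFAP2A levels overlapped WT. In these clones, as in A375 clone 1.2, TFAP2A itself did not pass the threshold. In WM115 clone 1.3 the share was 37.4% to 58.9%. No test was run across transcripts, whose levels are estimates. TFAP2A-AS1 and TFAP2A-AS2 lie within TFAP2A on the other strand, and without a stated strand their reads cannot be told apart from those of TFAP2A. TFAP2A-AS1 had 2.49 ± 0.60 TPM in WM115 WT (SD, n = 4), with log2 differences of -0.87 and -0.94 in clones 4.1 and 4.2 (limma adjusted p 0.00896 and 0.00657), under the minimum of a call.

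**Figure D3:**
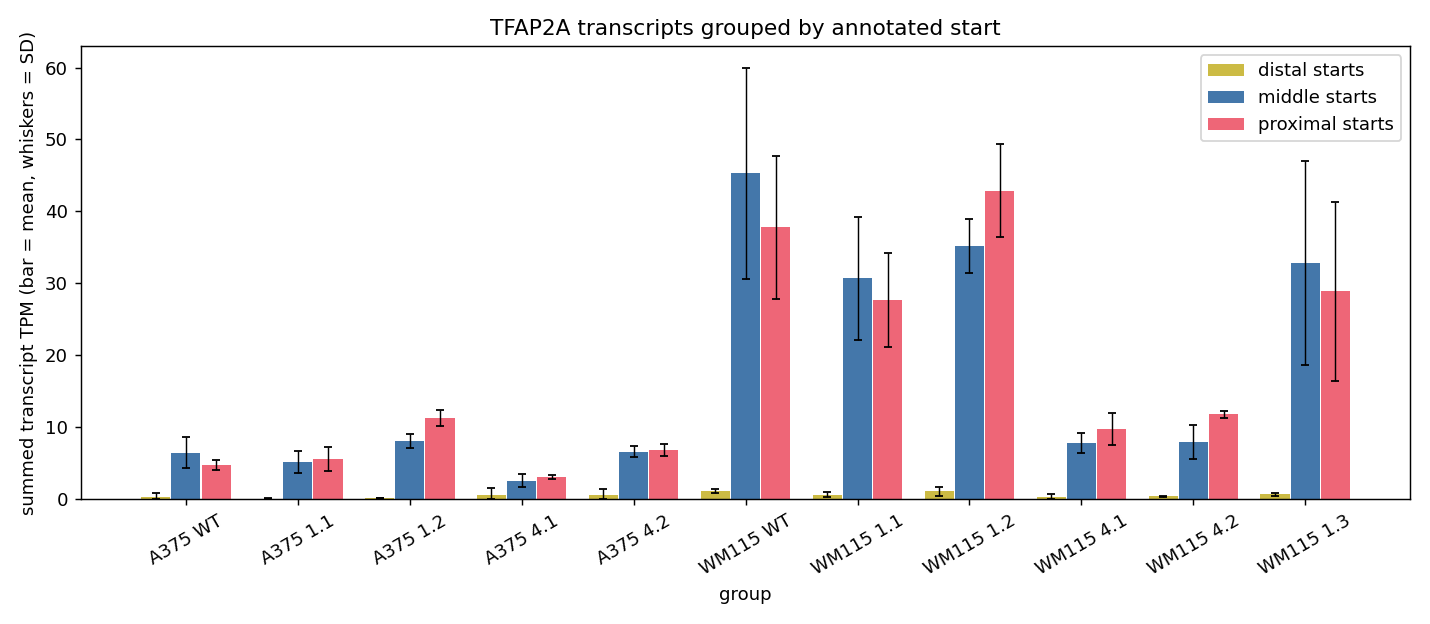
TFAP2A transcripts summed by cluster of annotated start (y axis, TPM; bars are means, whiskers SD) in each group (x axis); the internal start is left out. The middle and the proximal starts are both at 7.81 to 11.8 TPM in WM115 clones 4.1 and 4.2 against 45.3 and 37.8 TPM in WT.

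MSX1 and MSX2 encode homeodomain repressors that respond to BMP signals at the neural plate border and in developing skull and teeth. MSX2 (ENSG00000120149, chromosome 5, 174724533 to 174730893) had 5.18, 3.83, 3.96 and 6.0 TPM in A375 WT and 2.07, 3.21, 1.36 and 0.811 TPM in clone 1.2. All 4 libraries of the clone were under the lowest WT library, and MSX2 fell by 1.06 (SE 0.31, limma adjusted p 0.0394). This call was narrow: it was lost without any of 7 of the 18 libraries, where the log2 difference was -1.12 to -0.86, and within libraries of low mitochondrial share, at -0.72. Those libraries were WT libraries 1, 3 and 4, clone 1.2 libraries 1, 3 and 4 and clone 4.1 library 1. Clone 1.1 had 6.65, 22.8 and 9.33 TPM of MSX2, all above WT, with a log2 difference of 1.12 (SE 0.33, limma adjusted p 0.143). Without its library 1 the difference was 1.47 (limma adjusted p 0.0379), without its library 2 it was 0.65 (limma adjusted p 0.676), and within libraries of low mitochondrial share it was 0.58. Clones 1.1 and 1.2 did not overlap in MSX2, and differed by 2.18 (SE 0.33, limma adjusted p 0.000329). Clone 4.1 had 2.22 to 4.32 TPM and clone 4.2 had 5.82 to 7.58 TPM, each overlapping WT.

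MSX1 (ENSG00000163132, chromosome 4, 4859666 to 4863936) had 9.56, 6.25, 8.92 and 8.61 TPM in A375 WT, 10.2, 20.3 and 16.1 TPM in clone 1.1 and 6.71, 10.5, 7.61 and 3.56 TPM in clone 1.2. Clone 1.1 lay above WT, with a log2 difference of 0.79 (SE 0.27, limma adjusted p 0.234). It was higher than clone 1.2 by 1.06 (SE 0.27, limma adjusted p 0.0147), though their ranges overlapped, and this call was lost without clone 1.1 library 2 (0.85) or 3 (1.01), or clone 1.2 library 4 (0.81), and with the replicate number as a block (0.81, limma adjusted p 0.0868). Clone 4.2 had 9.82, 10.8 and 11.1 TPM, just above WT, with a log2 difference of 0.32 (limma adjusted p 0.666). Over the 18 A375 libraries the Pearson correlation of MSX1 and MSX2 was 0.88 on the log2 scale, a description over libraries that share groups. In WM115 MSX1 ran from 2.80 to 8.04 TPM over all libraries, and no clone passed the threshold against WT. WM115 clone 1.1 was lower than 1.2 by a log2 difference of -0.69 (limma adjusted p 0.00757), and clone 4.1 higher than 4.2 by 0.69 (limma adjusted p 0.0497), both under the minimum. Between WM115 clones 4.1 and 4.2, 0 of 6 genes were called, where 2.63% of all genes were, and 1 had an unadjusted limma p under 0.05, against 21.3% of all genes.

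**Figure D4:**
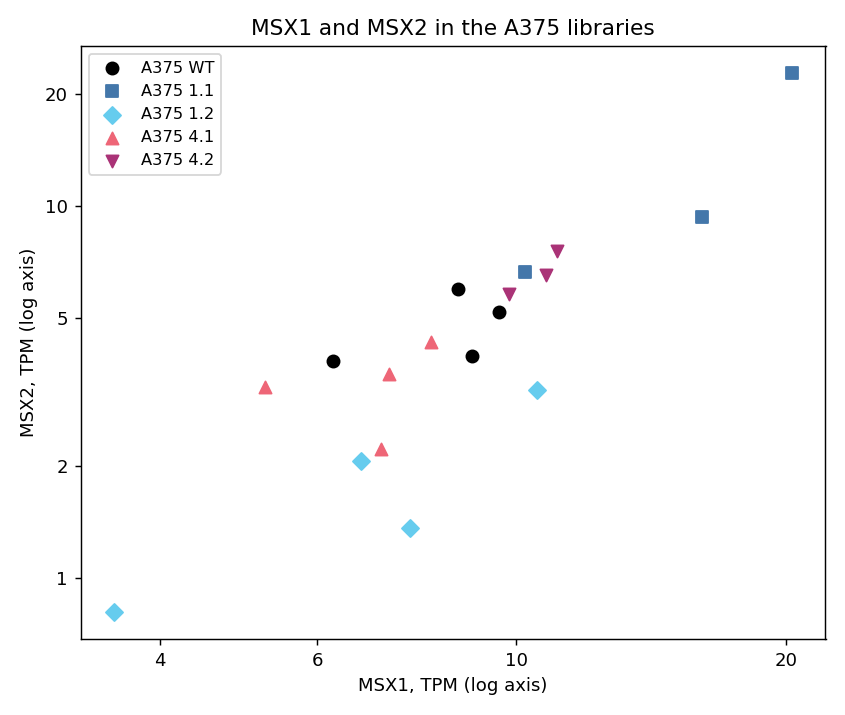
MSX2 against MSX1 in the 18 A375 libraries (both axes TPM on a log scale; 1 point per library, marked by group). Clone 1.1 reaches 20.3 TPM of MSX1 and 22.8 TPM of MSX2 at the upper right, and clone 1.2 goes down to 3.56 and 0.811 TPM at the lower left.

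In WM115, MSX2 and TFAP2B were near 0. MSX2 was listed at 0 in all 4 WT libraries and all 5 of clone 1.1, and had 1.01, 0.534 and 0.870 TPM in clone 4.1. TFAP2B had 0.508, 0.325 and 0.847 TPM in clone 4.1 and at most 0.330 TPM elsewhere in WM115. Clone 4.1 thus held the highest level of both genes in this line, at levels that were not tested.

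PAX3 (ENSG00000135903, chromosome 2, 222199888 to 222298996, minus strand), a paired-box factor of the neural crest and of melanocyte stem cells, passed the threshold in none of the 9 clones set against WT. Its libraries ran from 9.54 to 15.4 TPM in A375, where the WT libraries had 12.3, 11.3, 11.3 and 12.3 TPM. In WM115 they ran from 11.9 to 24.1 TPM, with 24.1, 21.9, 16.0 and 21.5 TPM in WT. All clone ranges overlapped WT, and the log2 differences were -0.11 to 0.05 in A375 and -0.40 to -0.15 in WM115. A test for any difference between groups of a line gave limma adjusted p-values of 0.894 in A375 and 0.235 in WM115. The PAX3 transcripts with the highest mean in WT of both lines were ENST00000392070 and ENST00000409551, at 20.5% to 34.3% and 21.7% to 29.9% of PAX3 in A375 WT and 35.4% to 41.7% and 26.5% to 37.5% in WM115 WT.

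FOXD3 (ENSG00000187140, chromosome 1, 63323041 to 63325126), a forkhead repressor that marks early neural crest, varied more between libraries. In A375 WT it had 11.8, 23.5, 10.8 and 11.6 TPM. Clones 1.1 and 4.2 lay under WT, at 8.80, 9.58 and 4.67 TPM and at 6.61, 7.76 and 5.44 TPM. Their log2 differences of -0.81 and -0.96 had limma adjusted p-values of 0.456 and 0.536. Clone 4.1 had a log2 difference of -0.47 (limma adjusted p 0.751). When replicate numbers were used as pairs of clone 4.1 and WT libraries, a pairing seen in the data and not given in the labels, the difference was the same and the limma adjusted p was 0.0479. That paired fit held the libraries of clone 4.1 and WT alone and called 242 genes. The fit without pairs held all A375 libraries and called 109, so the fits differ in libraries as well as in pairing. In the paired fit TFAP2A had -0.80 (limma adjusted p 0.00782) and TFAP2C 0.38 (limma adjusted p 0.05), and the rest of the 8 genes had larger adjusted p-values. FOXD3-AS1 overlaps FOXD3 on the other strand over 1401 bases, and reads of the pair cannot be told apart.

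In WM115, FOXD3 had 12.5, 12.6, 22.2 and 11.8 TPM in WT, 27.1, 21.1, 33.1, 22.5 and 25.4 TPM in clone 1.1 and 6.20, 26.8 and 3.86 TPM in clone 1.2. Clone 1.1 overlapped WT, with a log2 difference of 0.79 (SE 0.35, limma adjusted p 0.11). With only these groups fitted the limma adjusted p was 0.0157, and with the replicate number as a block 0.00751, still under the minimum difference of a call. Clone 1.1 was higher than clone 1.2 by 1.42 (SE 0.38, limma adjusted p 0.00726), in a comparison that called 11.8% of genes. Without library 3 of clone 1.2, the one low in SOX10, the difference was 0.91 and the limma adjusted p 0.0928. Library 1 of clone 1.2 was also low in FOXD3, with 279 TPM of SOX10. Clone 1.3 had 8.62, 6.80 and 6.34 TPM, all under WT, with a log2 difference of -0.90 (SE 0.40, limma adjusted p 0.341).

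FOXD1 (ENSG00000251493, chromosome 5, 73444827 to 73448527, minus strand), a forkhead factor known from kidney stroma, ran from 13.5 to 35.0 TPM in A375 and from 10.1 to 22.6 TPM in WM115. No clone passed the threshold, and the log2 differences were -0.09 to 0.44 in A375 and -0.34 to 0.09 in WM115.

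**Figure D5:**
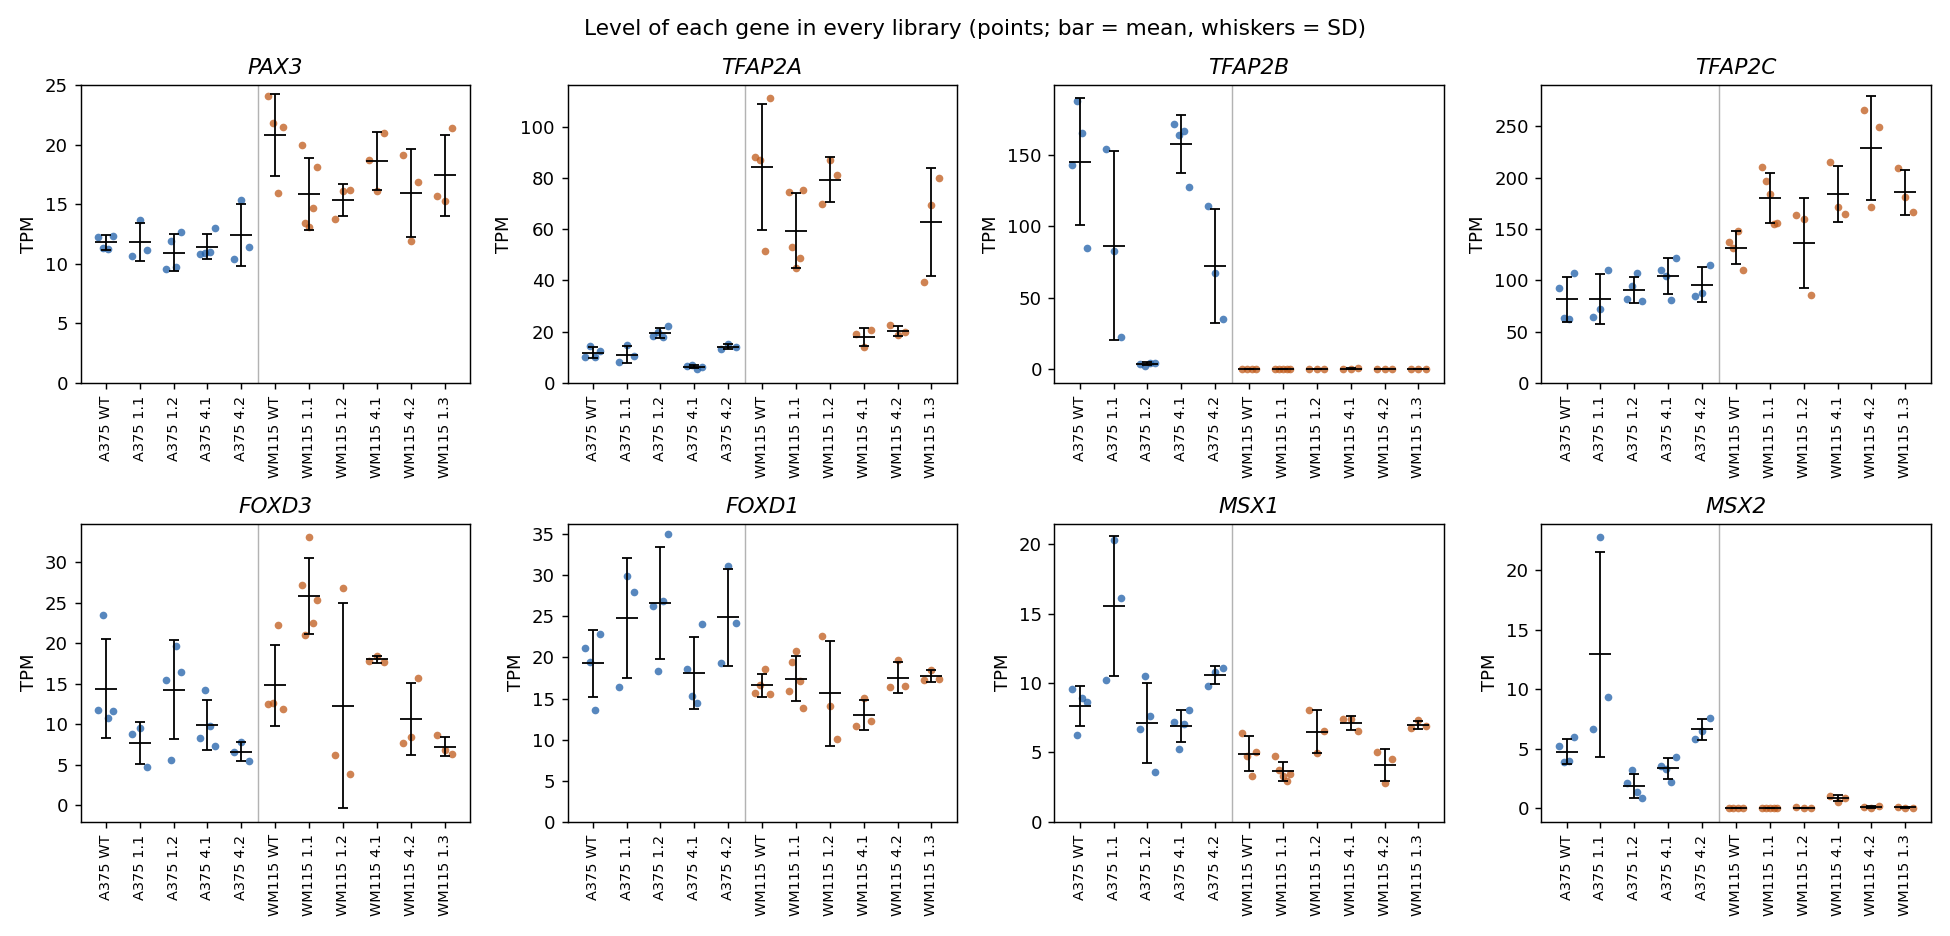
TPM of each of the 8 genes in every library (y axis, 1 point per library; bars are means, whiskers SD) by group (x axis; A375 left of the grey line, WM115 right). TFAP2B falls to 3.90 TPM on average in A375 clone 1.2, and TFAP2A in WM115 clones 4.1 and 4.2 sits at 18 and 20.4 TPM against 84.4 TPM in WT.

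Over all groups of a line, an F test found 4 of 8 genes to differ in A375 (TFAP2A, TFAP2B, MSX1 and MSX2), where it called 16.4% of genes. In WM115 it found 4 of 6 (TFAP2A, TFAP2C, FOXD3 and MSX1), where it called 57.6%. The limma adjusted p-values were 0.000114, 2.77e-06, 0.0375 and 0.00164 in A375 and 5.48e-06, 0.0179, 0.00752 and 0.003 in WM115.

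The lines differed before any deletion. Of the 8 genes, 3 were called between WM115 WT and A375 WT, where 22.7% of 16126 genes were. TFAP2A was higher in WM115 by 2.70 (SE 0.23, limma adjusted p 1.34e-05). TFAP2B, at 0.017 to 0.179 TPM in WM115 WT, was lower by a log2 difference of -7.02 (limma adjusted p 2.39e-08). MSX2, listed at 0 in WM115 WT, was lower too, by a log2 difference of -2.5 (limma adjusted p 2.3e-06). TFAP2B and MSX2 reached the level needed for a test through the A375 libraries alone. They could therefore only be called lower in WM115, and they are part of the count of genes called. Their sizes depend on the pseudocount: with 0.1 added in place of 1 they were -9.63 and -5.57. The ranges of 5 of the 8 genes did not overlap, as for 43.9% of all genes. PAX3 at 0.76, TFAP2C at 0.72 and MSX1 at -0.68 had limma adjusted p-values of 0.0024, 0.0132 and 0.0183 and were under the minimum. FOXD3 and FOXD1 differed by 0.06 and -0.18. Each line is 1 line, and genes of chromosome 6 as a whole differed by a median of 0.62.

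Only a test over clones compares the deletions, since a clone is its unit. Over the 8 clones with the line as a term, 0 of 8 genes and 0 of 18662 genes were called between R1 and R4, while 767 genes (4.11%) had an unadjusted p under 0.05. TFAP2A, the 1 of the 8 among these, was higher in R1 by 1.17 (SE 0.34, unadjusted limma p 0.00875, adjusted p 0.981). TFAP2B differed by -1.41 (SE 0.81, limma adjusted p 0.981), and by -0.43 without A375 clone 1.2. With libraries counted as units, which repeats clones, TFAP2A (1.2) and TFAP2B (-1.61) passed. The interaction of region and line called 0 of the 8, and 0 of 18662 genes, with 2.97% of genes at an unadjusted p under 0.05.

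Other genes of the network were read from lists that were chosen with earlier results of these data known. Of 26 tested neural crest and border regulators, 8 fell and 2 rose in A375 clone 1.2 by the limma calls, which took 4.01% of all genes, and the median log2 difference was -0.65 against 0.07 for all genes. SNAI2 and TWIST1, which drive crest cells to leave the epithelium, fell by 2.71 and 1.24, PRRX1 by 2.81 and RXRG by 4.2, while SOX9 and NR2F1 each rose by 1.31. SOX9 had means of 0.153 TPM in A375 WT and 1.89 TPM in clone 1.2. It was tested only through the libraries of that clone, so it could only be called higher. RXRG and SOX8 were lower in A375 clones 1.1 and 4.2 as well: RXRG had log2 differences of -3.50 and -2.75 and SOX8 of -1.80 and -1.59. In WM115, SOX8 rose in 5 of 5 clones against WT, by 1.78 to 3.86, from 0.0955 ± 0.0585 TPM in WT (SD, n = 4). SOX8 was at most 0.15 TPM in WT and was tested only through the clone libraries, so it could only be called higher. Its smallest rise was in clone 1.2, where it was 2.74 without library 3. ZIC2 rose by 1.21 in clone 1.2 (1.26 without library 3) and by 1.14 in clone 1.3. MYCN rose by 1.94 and 2.17 in clones 4.1 and 4.2 and fell by 1.12 in clone 1.1, while MYC fell by 1.83 and 1.74 in clones 4.1 and 4.2 and rose by 1.22 in clone 1.1. Of 28 tested genes of the list, 3 rose and 1 fell in clone 4.1 and 3 rose and 3 fell in clone 4.2, where 7.57% and 6.6% of all genes were called, with medians of 0.03 and -0.15.

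Genes of BMP signalling were called in A375 clone 1.2 and in 4 of the 5 WM115 clones. In A375 clone 1.2, 7 of 16 tested genes fell and 1 rose, where 4.01% of all genes were called, with a median of -0.44 against 0.07 for all genes. ID1, ID2, ID3 and ID4, which are direct BMP targets, fell by 1.68, 1.66, 2.12 and 1.26, as did the ligands BMP4 (1.0) and BMP7 (1.91), while the BMP antagonist NOG rose by 1.41. NOG was at most 0.245 TPM in A375 WT, so it could only be called higher, and its mean in clone 1.2 was 2.2 TPM. ID3 is also in the list of neural crest and border regulators above. ID3 stood at 191 ± 37.4 TPM in A375 WT and 44.0 ± 12.2 TPM in clone 1.2 (SD, n = 4 each). In WM115 clones 4.1 and 4.2, 4 and 3 of 17 rose and 0 fell, where 7.57% and 6.6% of all genes were called, with medians of 0.29 and 0.30 against -0.10. ID3 rose by 4.17 and 3.37, from 4.72 ± 1.52 TPM in WT (SD, n = 4), ID1 rose by 3.28 and 3.46, and ID2 rose by 1.69 and 1.58. This was not confined to these clones, as ID1 and ID2 were each called in 3 WM115 clones. ID2 had a mean of 20.4 TPM in clone 1.1 against 17.6 and 16.3 TPM in clones 4.1 and 4.2 and 4.82 TPM in WT. ID1 had means of 15.2, 21.7 and 30.7 TPM in clones 1.1, 1.2 and 1.3. It had 54.4 and 61 TPM in clones 4.1 and 4.2 and 5.12 TPM in WT. Without library 3 of clone 1.2, ID1 there differed by 2.08 (limma adjusted p 0.112). In WM115 clone 1.1, 1 rose and 1 fell (4.88% of all genes called), and in clone 1.2, 3 rose and 1 fell (7.61%), or 2 rose and 0 fell without its library 3. Those 2 were GREM1 (5.36) and the antagonist NOG (2.91), with means of 1.12 and 0 TPM in WM115 WT. NOG could therefore only be called higher. BMP7 had a mean of 0.457 TPM in WM115 clone 1.1 against 24.5 TPM in WT. Whether the clones of the 2 lines differ in the genes of BMP signalling was not tested.

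Of 11 tested melanocytic genes, 7 fell in WM115 clone 4.1 and 6 in clone 4.2, where 7.57% and 6.6% of all genes were called, with medians of -2.75 and -2.09 against -0.10 for all genes. MITF, TYR, DCT, PMEL and MLANA are also among the melanocyte markers counted above, so these counts share genes with those. MITF fell by 3.40 and 2.80, and DCT fell by 6.5 and 6.89. The log2 differences were -4.33 and -4.84 for TYRP1, -4.13 and -4.07 for MLANA and -2.75 and -2.73 for TYR, all called. WM115 clone 1.2 had 5 lower and 1 higher of 11 (7.61% of all genes called), and 3 lower and 0 higher without its library 3. Clone 1.1 had 3 lower (4.88% of all genes called) and clone 1.3 had 0 called (0.618%). In A375, where the pigment genes were near 0, 1 of 6 was called in each of clones 1.1 (MITF, -1.31) and 1.2 (EDNRB, -1.76), where 0.731% and 4.01% of all genes were called. Of 6 TFAP2 partner genes, CITED1, a coactivator of TFAP2 factors, fell by 2.89 and 2.91 in WM115 clones 4.1 and 4.2. In WM115 clone 1.2 CITED1 fell by 3.07 with library 3, and without it the log2 difference was -1.56 (limma adjusted p 0.206). CITED2 rose by 1.56 in A375 clone 1.2 and by 1.34 in WM115 clone 1.2, or by 1.21 there without library 3. Of the paralogs of the 8 genes, PAX8 rose by 1.3 and 1.47 in WM115 clones 4.1 and 4.2. PAX8 was at most 0.478 TPM in WM115 WT, so it could only be called higher. It rose by 1.61 in clone 1.2, where the log2 difference without library 3 was 1.37 (limma adjusted p 0.0643).

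Genes whose levels followed each factor most closely were sought over the 39 libraries after centring each line, among 15287 genes, as a description. TFAP2A was followed most by GREB1 (Pearson's r = 0.878), MAGI2-AS3 (0.845) and SIRT5 (0.835). The nearest gene was SUSD6 (0.714) for PAX3, CDH2 (0.756) for TFAP2C, DACT1 (0.758) for FOXD3, TENT4A (0.803) for FOXD1 and PDCL (0.746) for MSX1. TFAP2B and MSX2 were tested in 1 line only and were left out.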

How the data were processed

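The deposited values are TPM per gene and per transcript, made by the authors; per the submitters' processing notes, GRCh38 and DRAGEN were used. The annotation release, the aligner settings and strand handling are not given in the sources used here. The gene table has 60871 lines, of which 200 repeat a gene, leaving 60671. Each table holds 6 further columns that match no sample and were not used. TPM summed to 999999.9 to 1000000.1 per library. Depth is unknown, so no counting interval was computed.

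Groups and replicate numbers came from the labels. After adding a pseudocount of 1 and taking log2, limma 3.58.1 (R 4.3.3) was fitted with 1 coefficient per group and a variance trend. Genes needed 1 TPM or more in 3 or more libraries of a line (16692 in A375, 16997 in WM115, 16126 for WT of both lines). All tests are two-sided. R1 and R4 were compared on clone means over 18662 genes. The scripts were tested on simulated data. Transcripts were placed with GENCODE 29, and promoters with RefSeq. The 8 genes, the lists and the tests were chosen with earlier results of these data known. In each list, genes called in at least 2 clones of a line were named first, at most 4 by size, and further genes named were chosen after their values were seen. The 10 Mb medians, and the list values without WM115 clone 1.2 library 3, were added after the data were seen. Libraries with the same replicate number deviated together across genes in A375 clone 4.1 and WT (r 0.326 to 0.776 in 4 pairs) and in A375 clones 1.1 and 4.2 (0.435 to 0.740 in 3 pairs), and in no other pair of groups in a line did every value exceed 0.1. Where the pairing comes from is not given. Alternatives were other pseudocounts, filters, scalings, variance models, replicate block, mitochondrial set and leaving out each library.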

Additional observations from a re-analysis of the deposited data

Results flagged for a closer look

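Among 38 combinations of a gene and a group of 4 or 5 libraries, 3 had 1 library far from the others, where chance gives about 1 in 20. FOXD3 had 23.5 TPM in A375 WT library 2, while the other 3 WT libraries had 10.8 to 11.8 TPM. FOXD3 had 22.2 TPM in WM115 WT library 3 against 11.8 to 12.6 TPM in the others. PAX3 had 13 TPM in A375 clone 4.1 library 4 against 10.9 to 11 TPM in the others. Among 16 combinations of a gene and a region, 0 had every clone library of one line above its WT libraries and every clone library of the other line below.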

How the results depend on the processing

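The single-gene differences followed here were those with a limma adjusted p under 0.05, or of large size, in the fit given above. Smaller differences were left out, so whether they kept their direction is not known. None of those followed changed direction under an alternative. For these single-gene differences, 286 values kept their side of the threshold under alternatives other than leaving out a library, 8 passed it and 9 no longer did. The 8 passed only where the minimum difference was dropped or libraries were counted as units. In A375 clone 1.2 the number of the 8 genes called was 1 instead of 2, because MSX2 was lost, with a filter at a mean TPM of 5, with no filter, with the replicate number as a block, with mitochondrial set as a term and within 1 mitochondrial set. Without the minimum difference the number was 1 in A375 clone 4.1, 2 in WM115 clone 4.2 and 6 between the lines. Between A375 clones 4.1 and 4.2 it was 0 after median-of-ratios scaling. With libraries as units, 2 genes were called between R1 and R4.

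For each comparison of groups, the replicate block fit held only the libraries of those groups that share a replicate number. With the replicate block the number called was 1 in A375 clone 1.2, 0 between A375 clones 4.1 and 4.2 and 0 between WM115 clones 1.1 and 1.2, and the other counts stayed within 1.5 times. TFAP2B in A375 clone 1.2 (-4.86) and TFAP2A in WM115 clones 4.1 (-1.99) and 4.2 (-1.80) stayed called with the block, while MSX1 between A375 clones 1.1 and 1.2 (0.81) did not.

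Leaving out 1 library at a time gave 0 to 1 called genes for A375 clone 1.1, 1 to 2 for A375 clone 1.2, 0 to 2 between A375 clones 4.1 and 4.2, 0 to 1 between WM115 clones 1.1 and 1.2, 0 to 1 for WM115 clone 1.2, 2 to 4 between A375 clones 1.1 and 1.2, 3 to 5 and 4 to 5 in the F tests of A375 and WM115, 3 between the lines, 1 each for WM115 clones 4.1 and 4.2, and 0 for the other comparisons. The 1 gene of WM115 clone 1.2 was FOXD3 without library 2 (-1.37, limma adjusted p 0.00218). TFAP2B in A375 clone 1.2 ran from -5.10 to -4.72, and TFAP2A from -2.36 to -1.98 in WM115 clone 4.1 and from -2.17 to -1.80 in clone 4.2, called each time. Without depth, low levels such as MSX2 in WM115 have no known precision.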
